A study of Mus musculus with 8 samples.

Results

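Type I interferons are secreted cytokines that cells release when they meet viral nucleic acids. They bind a receptor made of the chains IFNAR1 and IFNAR2, whose kinases JAK1 and TYK2 activate STAT proteins, and these join IRF9 and switch on interferon-stimulated genes through a short DNA element in their promoters. Many of these genes are also kept at a low level in unstimulated blood cells, and interferon-α is used as a treatment in myeloproliferative neoplasms. The gene set described here holds 42 of these genes, chosen by name as interferon-stimulated genes and their transcription factors, with earlier results of these data known. The deposited table held all 42 among its 56748 genes.

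RNA sequencing of 32D cells, an IL-3-dependent mouse myeloid line, addressed what blocked glucose uptake does to transcription in cells with and without the Jak2V617F driver mutation of these neoplasms. All 8 libraries came from 32D cells transduced with murine Jak2WT or Jak2V617F, which had gone through a round of single-cell dilution before editing. The 4 groups were Jak2WT GLUT1/3 WT, Jak2WT GLUT1/3 dKO, Jak2V617F GLUT1/3 WT and Jak2V617F GLUT1/3 dKO, where dKO is the CRISPR-Cas9 knockout of Slc2a1 and Slc2a3, the genes for the glucose transporters GLUT1 and GLUT3. Each group had 2 single-cell-derived clones, numbered 1 and 3, kept for 24 h in RPMI with 5 mM glucose, 1 mM glutamine, 10% serum and 2 ng/ml IL-3. A group is thus a pair of clones of 1 cell line, and a clone is 1 library. The p-values rest on the spread between clones, pooled over the 4 groups. The dKO clones of a background are listed with the same Slc2a1 deletion. The sources used here do not state whether they descend from 1 edited cell or whether the GLUT1/3 WT clones were nucleofected. The spread between clones may therefore understate that between separate edits.

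FPKM scales a gene's fragments to its length and to the size of the library, and was tested as log2(FPKM + 1) with limma. The filter kept 11818 genes that reached 1 FPKM in 2 or more libraries, and the Benjamini-Hochberg adjustment ran over all of them. Of the 42 members, 33 passed this filter, and a gene is called higher or lower below at an adjusted p under 0.05. Of these 33, 7 (Usp18, Oasl2, Irf7, Ifih1, Dhx58, Zbp1 and Xaf1) passed through dKO libraries alone, so counts below are also given without them. Oasl2 and Ifih1 of these, with Oas1g and Herc6, reached 1 FPKM in Jak2V617F libraries alone. The counts between backgrounds are given without all 9 such genes. An exact permutation test of 2 clones against 2 cannot give a two-sided p below 0.333. Fold values marked as such are ratios of mean FPKM, and log2 fold changes are differences of log2(FPKM + 1), which understate the change of low genes.

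The element through which the STAT and IRF proteins act, the interferon-stimulated response element, was looked for as the letters GAAA, any 2 bases and GAAA again, on either strand, from 250 bases before to 50 bases after the annotated start of each gene in GRCm39. It was present in 22 of the 42 members (52.4%). Among genes that passed the expression filter, 15 of 33 members (45.5%) and 338 of 9686 protein-coding genes (3.49%) held it. The members include genes that rose in the dKO clones and genes that stayed near 0, and the element stood in promoters of both kinds. The match is a description of the letters and not of binding. The sites of 6 members that were higher in the dKO clones of both backgrounds come first, read 5′ to 3′ on the strand of the gene, with the letters of the match nearest the start in capitals.
Isg15, chr4:156285324-156285349, minus strand: aggaaaccGAAACAGAAAatagctct
Usp18, chr6:121222798-121222823, plus strand: atctagggGAAAACGAAAgcttggcg
Oas2, chr5:120887972-120887997, minus strand: cacttgagTTTCGATTTCctaggttc
Oas3, chr5:120915782-120915807, minus strand: agggaggaGAAAACGAAAgtgaaggg
Ifi27, chr12:103400384-103400409, plus strand: gagctgggGAAATAGAAAcctatctt
Bst2, chr8:71990223-71990248, minus strand: aggaaaatGAAACTGAAAggctgcag
The next 6 belong to members that were called in neither background or were too low to test.
Ifit1, chr19:34618196-34618221, plus strand: agtctcagTTTCAGTTTCtcactgct
Ifit3, chr19:34560799-34560824, plus strand: taagtctgTTTCAGTTTCtactttcc
Ifit3b, chr19:34585195-34585220, plus strand: taagtctgTTTCAGTTTCtactttcc
Rsad2, chr12:26506554-26506579, minus strand: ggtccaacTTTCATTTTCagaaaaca
Ifi203, chr1:173770076-173770101, minus strand: gagctgggGAAATCGAAAgctatgaa
Ifi204, chr1:173594629-173594654, minus strand: aagccaggGAAATTGAAAgctatgaa
Ifit3 and Ifit3b share the same 26 bases. Among the 23 members higher in both backgrounds 10 held the element (43.5%), among the 9 members too low to test 7 did (77.8%), and no test was made of this difference.

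To show how the elements lie together, the 150 bases before the start are given for Isg15 and Usp18, which rose in the dKO clones, and for Ifit1, which was called in neither background. All matches are in capitals.
Isg15, chr4:156285304-156285453, minus strand: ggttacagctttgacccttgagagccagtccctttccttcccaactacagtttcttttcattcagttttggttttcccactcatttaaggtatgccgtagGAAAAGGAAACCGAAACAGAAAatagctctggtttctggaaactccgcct
Usp18, chr6:121222707-121222856, plus strand: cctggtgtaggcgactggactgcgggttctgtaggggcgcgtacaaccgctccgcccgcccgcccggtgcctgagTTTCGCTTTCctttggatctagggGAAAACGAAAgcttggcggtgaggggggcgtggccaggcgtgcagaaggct
Ifit1, chr19:34618121-34618270, plus strand: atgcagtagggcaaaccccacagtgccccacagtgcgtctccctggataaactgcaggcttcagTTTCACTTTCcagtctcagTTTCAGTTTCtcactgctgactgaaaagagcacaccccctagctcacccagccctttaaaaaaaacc
Isg15 had 3 overlapping matches in its window, Usp18 had 2 on opposite strands and Ifit1 had 2 in the same orientation. The shorter letters TTCNNNGAA, to which STAT dimers bind, were found in 8 of the 33 tested members (24.2%), in none of the 9 others, and in 7.6% of the protein-coding genes tested.

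The libraries held between 16846011 and 48884329 reads on genes, recovered from the FPKM values. Slc2a1 was at 64.0 and 53.0 FPKM in the Jak2V617F GLUT1/3 WT clones 1 and 3 and at 17.3 and 12.7 in the dKO clones, and at 44.7 and 48.4 and 9.47 and 9.17 in the same order in Jak2WT. It was lower in both dKO groups (log2 fold change -1.90 ± 0.15, adjusted p = 0.000444, and -2.20 ± 0.15, adjusted p = 0.000872; SE). Slc2a3 was lower in Jak2V617F dKO (log2 fold change -2.39 ± 0.49, adjusted p = 0.0115) and was not called in Jak2WT dKO (-1.71 ± 0.49, adjusted p = 0.0612), where clone 3 kept 49.5 FPKM. Of 11 markers fixed for a myeloid progenitor, 5 were at an FPKM of at least 1 in every library (Ptprc, Spi1, Csf2rb and Il3ra among them), while Kit was listed at 0 in all libraries and Cd34, Mpo, Elane, Ctsg and Cebpa were at or near 0. Their summed level was 159.8 to 247 FPKM in 6 libraries and 89.1 to 92.0 FPKM in the Jak2V617F dKO clones, and that of 10 macrophage and dendritic markers was 52.2 to 72.9 and 22.0 to 26.4 FPKM, carried by Adgre1 and Cd68. None of 8 lymphoid and 5 stromal markers reached an FPKM of 1. The part of this difference in the interferon results was not tested, and in bulk RNA a change in the share of cells and a change in RNA per cell cannot be told apart.

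In the Jak2V617F background, 30 of the 42 members were higher in the dKO clones than in the GLUT1/3 WT clones and 0 were lower by limma, at an unadjusted p under 0.05 or by voom, against 13.7% of all genes tested called higher and 16.2% called lower. The other 12 were Adar, Ifit1 and Oas1g, which were not called, and the 9 members too low to test. In all 33 tested members the lower dKO clone exceeded the higher GLUT1/3 WT clone, as it did in 29.9% of all genes tested. The filter favours this for the 7 members that passed through dKO libraries alone, and it held in all 26 others. The median log2 fold change was 0.96 over these 33 and -0.02 over all genes tested. Without the 7 members that passed through dKO libraries alone, 23 of 26 were called, with a median of 0.86. When each library was left out in turn, the median over the 33 stayed between 0.93 and 1.12, and all 33 kept a positive log2 fold change. With the fit restricted to the Jak2V617F groups, 24 of the 33 were called higher, against 6.46% of all genes tested.

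**Figure D1:**
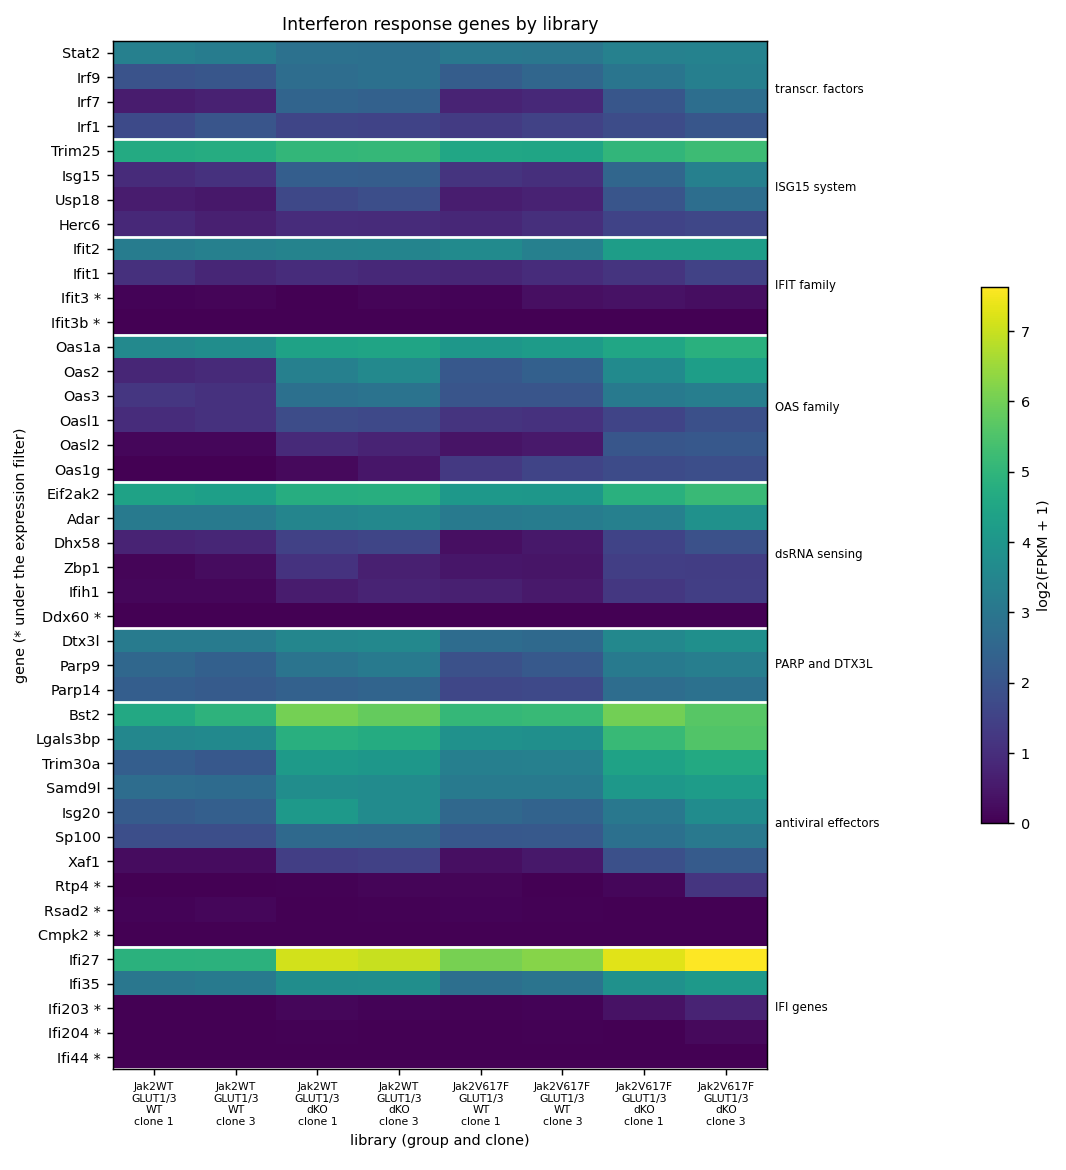
Level of the 42 members in each of the 8 libraries (columns, group and clone) as log2(FPKM + 1) (colour), ordered by role and mean level; an asterisk marks the 9 members under the expression filter. In most rows the dKO columns are brighter than the GLUT1/3 WT columns of the same background, Ifi27 is the brightest row, and the marked rows stay dark apart from Rtp4 and Ifi203 in Jak2V617F dKO clone 3.

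Among the transcription factors, all 4 were higher in Jak2V617F dKO (13.7% of all genes tested), or 3 of 3 without Irf7, which passed the filter through dKO libraries alone. Irf7, the main driver of the interferon-α genes, was at 0.680 and 0.853 FPKM in the GLUT1/3 WT clones 1 and 3 and at 3.09 and 5.74 FPKM in the dKO clones. Both dKO clones stood well above both GLUT1/3 WT clones, by 5.76-fold in the means (log2 fold change 1.57 ± 0.22, adjusted p = 0.00261). Irf9, the DNA-binding part of the complex with the STAT proteins, was at 3.74 and 4.75 and then 6.89 and 8.75 FPKM (log2 fold change 0.75 ± 0.13, adjusted p = 0.0068). Stat2, the partner of Irf9, moved least, from 7.37 and 7.12 to 9.27 and 9.43 FPKM (log2 fold change 0.33 ± 0.08, adjusted p = 0.0196). Irf1, which also answers interferon-γ, went from 1.49 and 1.82 to 2.42 and 3.10 FPKM and was close to the threshold (log2 fold change 0.50 ± 0.15, adjusted p = 0.0438).

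ISG15 is a ubiquitin-like protein that is attached to other proteins, USP18 removes it and also dampens the receptor, and HERC6 is a mouse ligase for it. Isg15 was at 1.20 and 1.05 FPKM in the Jak2V617F GLUT1/3 WT clones and at 4.71 and 8.97 in the dKO clones, and dKO clone 3 was the higher of the pair by a wide margin. This was a 6.09-fold difference of the means (log2 fold change 1.83 ± 0.23, adjusted p = 0.0019), resting on 18 and 22 reads in the GLUT1/3 WT clones and 115 and 159 in the dKO clones. Usp18 was also higher in dKO clone 3 than in dKO clone 1, with 0.536 and 0.661 FPKM and then 3.05 and 5.70 FPKM (7.31-fold, log2 fold change 1.71 ± 0.23, adjusted p = 0.0023). Herc6 and Trim25, the latter a ligase that works with the RNA sensor RIG-I, were higher by 0.63 ± 0.15 and 0.62 ± 0.09 on the log2 scale (adjusted p = 0.0183 and 0.00309).

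OAS enzymes make short chains of linked adenylates when they bind double-stranded RNA. Oas1a, Oas1g, Oas2 and Oas3 lie in 1 stretch of chromosome 5, between 120868398 and 121045584 in GRCm39, with Oas1b and Oas1c among them. Oas2 was at 3.25 and 4.07 FPKM in the Jak2V617F GLUT1/3 WT clones and at 11.6 and 18.6 in the dKO clones (4.12-fold, log2 fold change 1.76 ± 0.21, adjusted p = 0.00144). Its neighbour Oas3 went from 3.01 and 3.07 to 7.67 and 8.69 FPKM, with clones of a group close together (2.70-fold, log2 fold change 1.18 ± 0.10, adjusted p = 0.000496). The related gene Oasl2 had the largest fold of the family, 8.64-fold, from 0.322 and 0.421 to 3.15 and 3.27 FPKM (log2 fold change 1.62 ± 0.15, adjusted p = 0.000682). Oas1a and Oasl1 rose by 0.57 ± 0.12 and 0.60 ± 0.14 (adjusted p = 0.0144 and 0.0188). Oas1g was at 1.40 and 1.94 and 2.32 and 2.59 FPKM and was not called (log2 fold change 0.38 ± 0.18, adjusted p = 0.144). Oas1a and Oas1g are near-identical copies, so reads could be split between them in ways the counting does not show.

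Of 6 sensors and responders to double-stranded RNA, 5 were tested and 4 were higher, against 13.7% of all genes tested. Dhx58, Ifih1 and Zbp1 passed the filter through dKO libraries alone, and without them 1 of 2 was higher. Dhx58, which tunes the RNA sensors RIG-I and MDA5, went from 0.243 and 0.420 to 1.91 and 2.73 FPKM (6.99-fold, log2 fold change 1.31 ± 0.17, adjusted p = 0.00192). Eif2ak2, the kinase PKR that halts translation, went from 15.6 and 15.6 to 27.9 and 35.2 FPKM (log2 fold change 0.96 ± 0.11, adjusted p = 0.00144). Low in every group, Ifih1, which encodes MDA5, and Zbp1, which binds Z-form nucleic acids and can trigger cell death, reached 1.36 and 1.68 and 1.65 and 1.63 FPKM in the dKO clones and were called (log2 fold change 0.74 ± 0.17 and 0.95 ± 0.20, adjusted p = 0.0183 and 0.0114). Adar, which edits double-stranded RNA, was at 7.70 and 8.29 and 9.12 and 13.4 FPKM and was not called (log2 fold change 0.43 ± 0.15, adjusted p = 0.0746). Ddx60 was at or near 0 in all libraries.

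PARP9 and DTX3L act as a complex in ADP-ribosylation, and their genes start 681 bases apart on opposite strands of chromosome 16. All 3 genes of the group were called higher, against 13.7% of all genes tested. Parp9 went from 2.73 and 3.34 to 7.91 and 8.62 FPKM (log2 fold change 1.20 ± 0.12, adjusted p = 0.000842). Dtx3l went from 5.47 and 5.08 to 10.9 and 13.0 FPKM (1.04 ± 0.10, adjusted p = 0.000632) and Parp14 from 2.07 and 2.21 to 5.59 and 6.16 FPKM (1.13 ± 0.09, adjusted p = 0.000517). None of these 3 promoters held the letters of the response element in the windows searched. The Parp9 window ended at 35758889 and the Dtx3l window began at 35759472, so most of the stretch between their starts was not searched. Both genes cover that stretch on opposite strands, and reads there cannot be told apart without the strand setting.

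Of the 10 antiviral effectors, 7 were higher and the other 3 (Rsad2, Rtp4 and Cmpk2) were too low to test, against 13.7% of all genes tested. Without Xaf1, which passed the filter through dKO libraries alone, 6 of 6 tested were higher. Xaf1, a partner of the apoptosis inhibitor XIAP, had the largest fold of all members called, 9.53-fold, from 0.239 and 0.415 to 2.64 and 3.59 FPKM (log2 fold change 1.63 ± 0.16, adjusted p = 0.000869). Lgals3bp, a secreted glycoprotein, went from 13.6 and 13.1 to 34.5 and 46.5 FPKM (log2 fold change 1.52 ± 0.14, adjusted p = 0.000583), and Trim30a from 8.75 and 9.08 to 20.0 and 23.9 FPKM (1.21 ± 0.11, adjusted p = 0.000633). The remaining 4, Samd9l, Sp100, the exonuclease gene Isg20 and Bst2, which encodes the surface protein tetherin, had log2 fold changes of 0.72 to 1.03 (adjusted p = 0.000472 to 0.0233). Bst2 was the only one of the 7 with its level in dKO clone 1, 63.6 FPKM, above that in clone 3, 49.4 FPKM. Among the genes named IFI, Ifi27, which encodes a mitochondrial protein and had the highest level of all members in every library but Jak2WT GLUT1/3 WT clone 3 (where Bst2 had it), was at 66.2 and 74.9 FPKM in the GLUT1/3 WT clones and at 155 and 198 in the dKO clones (log2 fold change 1.30 ± 0.13, adjusted p = 0.000763), and Ifi35 rose by 1.13 ± 0.11 (adjusted p = 0.000846).

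The IFIT family, whose proteins bind foreign RNA and block its translation, stood apart from this picture in its levels. Ifit2 was at 11.6 and 9.02 FPKM in the Jak2V617F GLUT1/3 WT clones and at 17.9 and 18.1 in the dKO clones (log2 fold change 0.76 ± 0.11, adjusted p = 0.00363). Ifit1 was at 0.756 and 0.960 and 1.21 and 1.87 FPKM and was not called (log2 fold change 0.44 ± 0.18, adjusted p = 0.109). Ifit3 did not pass 0.297 FPKM in any library, and Ifit3b had 2 reads in 1 library and 0 in the others. These are near-identical copies that the counting could split.

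**Figure D2:**
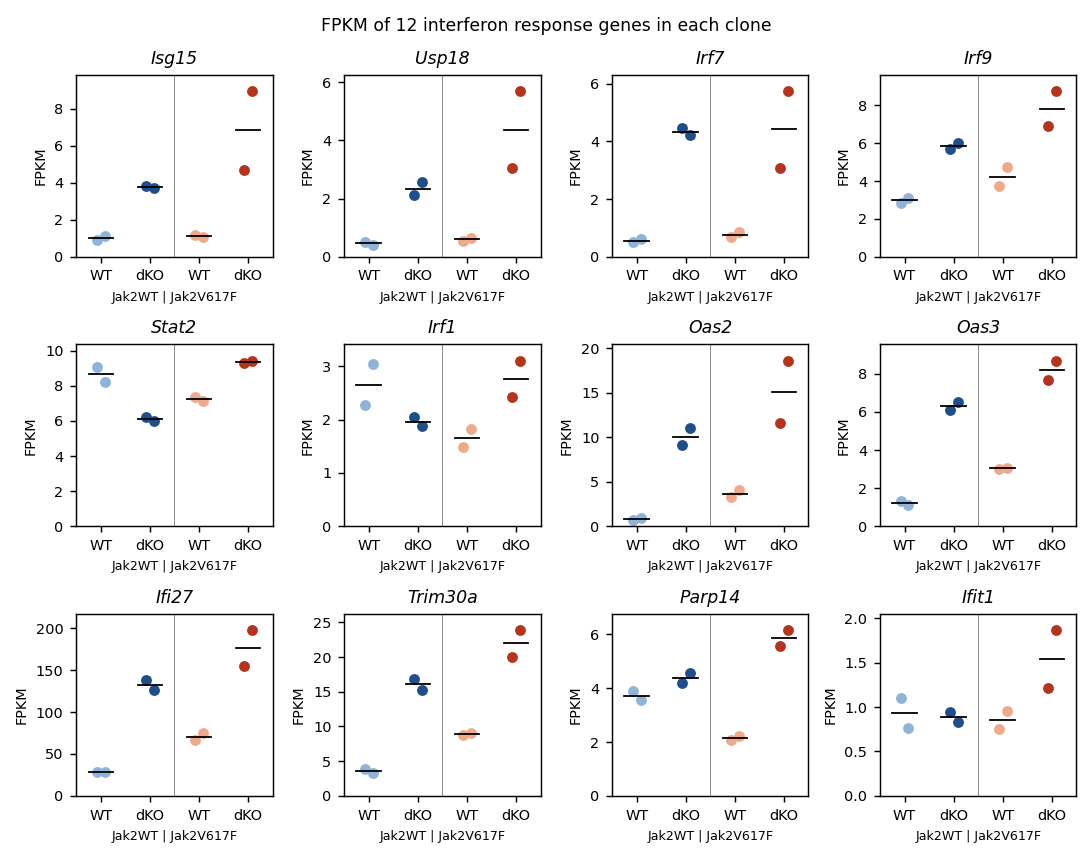
FPKM (vertical axis, linear, from 0) of 12 members in each clone (points; clone 1 left, clone 3 right) of the 4 groups, with a bar at the group mean of 2 clones. Isg15, Usp18, Irf7, Oas2, Oas3, Ifi27 and Trim30a are higher in the dKO clones of both backgrounds, Stat2 is lower in Jak2WT dKO and higher in Jak2V617F dKO, and the Jak2V617F dKO clones lie further apart than other pairs for most genes shown.

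The Jak2V617F dKO clones differed from each other over the gene set. Clone 3 was above clone 1 in 31 of the 33 tested members, by a median of 0.27 on the log2 scale, while it was above clone 1 in 51.6% of all genes tested. The median SD between the clones was 0.19 for the members and 0.10 for all genes tested in this group. The spread pooled over all groups may thus understate that of the members here. In Jak2WT dKO and Jak2WT GLUT1/3 WT clone 3 was above clone 1 in 17 and 19 members (46.8% and 56.2% of all genes tested). In Jak2V617F GLUT1/3 WT it was above in 22 members, against 38.9% of all genes. The members' median SD of 0.06 to 0.08 in these 3 groups was near that of all genes, 0.07 to 0.10. Without Jak2V617F dKO clone 3 the number of members called higher was 24, and without clone 1 it was 30.

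In the Jak2WT background, 23 of the 42 members were higher in the dKO clones and 1, Stat2, was lower, against 7.62% of all genes tested called higher and 6.06% called lower. The median log2 fold change was 0.72 over the 33 tested members and 0.01 over all genes tested. Without the 7 members that passed through dKO libraries alone, 18 of 26 were called higher, with a median of 0.69. These calls depended on having both Jak2WT clones: with any of the 4 Jak2WT libraries left out, 5 (without GLUT1/3 WT clone 1), 8 (without GLUT1/3 WT clone 3), 7 (without dKO clone 1) or 9 (without dKO clone 3) members were called higher, when 0.626% to 1.55% of all genes tested were. The median over the members stayed between 0.69 and 0.77, and 30 or 31 of the 33 kept a positive log2 fold change.

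The members with the largest log2 fold changes in Jak2WT were an OAS gene and Ifi27. Oas2 was at 0.749 and 0.894 FPKM in the GLUT1/3 WT clones and at 9.10 and 11.0 in the dKO clones, a 12.2-fold difference (log2 fold change 2.60 ± 0.21, adjusted p = 0.00162). Ifi27 was at 28.6 and 28.8 and then 138 and 126 FPKM (4.60-fold, log2 fold change 2.16 ± 0.13, adjusted p = 0.00053). Clones of a group were close in both genes, and no clone of one group reached the range of the other. Trim30a, Irf7, Oas3 and Isg20 followed, with log2 fold changes of 1.89 ± 0.11, 1.78 ± 0.22, 1.72 ± 0.10 and 1.66 ± 0.22 (adjusted p = 0.00053, 0.00636, 0.00053 and 0.00755). Isg15 was at 0.934 and 1.15 and 3.83 and 3.72 FPKM (1.23 ± 0.23, adjusted p = 0.0187) and Usp18 at 0.507 and 0.413 and 2.12 and 2.57 FPKM (1.19 ± 0.23, adjusted p = 0.019), so both stood near 1 FPKM or below it without the knockout in either background.

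Further members higher in Jak2WT dKO were the effectors Bst2 (1.17 ± 0.15), Lgals3bp (1.19 ± 0.14), Xaf1 (1.21 ± 0.16), Samd9l (1.01 ± 0.08) and Sp100 (0.77 ± 0.11), with adjusted p = 0.00177 to 0.00765. Among the transcription factors Irf9 rose by 0.78 ± 0.13 (adjusted p = 0.0141). Oas1a, Oasl1, Oasl2, Dhx58, Eif2ak2, Parp9, Dtx3l, Trim25 and Ifi35 were called with log2 fold changes between 0.36 (Dtx3l) and 0.76 (Oas1a), and their adjusted p ran from 0.0123 to 0.0462.

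Stat2 moved the other way. It was at 9.08 and 8.23 FPKM without the knockout and at 6.23 and 5.99 in the dKO clones, with no overlap (log2 fold change -0.44 ± 0.08, adjusted p = 0.0157). Irf1, at 2.27 and 3.03 and 2.04 and 1.87 FPKM, was not called (-0.30 ± 0.15, adjusted p = 0.228). Also not called were Ifit1 (-0.03 ± 0.18), Ifit2 (0.18 ± 0.11), Herc6 (0.17 ± 0.15), Parp14 (0.19 ± 0.09), Adar (0.40 ± 0.15), Ifih1 (0.54 ± 0.17), Zbp1 (0.72 ± 0.20) and Oas1g (0.32 ± 0.18), with adjusted p = 0.051 to 0.944. Oas1g had 0 reads in GLUT1/3 WT clones 1 and 3 of this background and 0.135 and 0.364 FPKM in the dKO clones, which is at least 11.1-fold higher when the GLUT1/3 WT clones are set to a floor of 3 reads over the group.

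Set side by side, the dKO comparisons of the 2 backgrounds, which share no library, called 23 members higher in both backgrounds and 7 (Herc6, Ifih1, Ifit2, Irf1, Parp14, Stat2 and Zbp1) higher in Jak2V617F without a call of higher in Jak2WT. Of all 11818 genes tested, 2.68% were called higher in both, 1297 genes in Jak2V617F only and 584 in Jak2WT only, where 0 members fell. Ifih1 and Zbp1, called in Jak2V617F only, passed the filter through dKO libraries alone, and Herc6 passed it through Jak2V617F libraries alone. Without the 7 members that passed through dKO libraries alone, 18 of 26 were higher in both. The difference between the backgrounds was itself tested as an interaction. The dKO effect was larger in Jak2V617F for 4 members and smaller for 2, against 4.72% and 5.91% of all genes tested, so the 2 smaller are near the background share. Oasl2, 1 of the 4, passed the filter through the Jak2V617F dKO libraries alone. Without the 9 genes that passed through dKO or Jak2V617F libraries alone 3 of 24 were larger and 2 smaller. Stat2 had an interaction of 0.77 ± 0.11 on the log2 scale (adjusted p = 0.0139) and went in opposite directions in the backgrounds. Parp14 (0.94 ± 0.13, adjusted p = 0.013) and Dtx3l (0.68 ± 0.13, adjusted p = 0.027) had the larger effect in Jak2V617F, and Ifi27 (-0.86 ± 0.18, adjusted p = 0.0303) and Trim30a (-0.68 ± 0.16, adjusted p = 0.0377) had it in Jak2WT. Oasl2 was called as well (0.92 ± 0.21, adjusted p = 0.0383), but its ratio of mean FPKM was 8.64-fold in Jak2V617F and 7.65-fold in Jak2WT. Its call held in 3 of 15 alternative settings, with an adjusted p of 0.586 by voom on recovered reads and 0.403 with a pseudocount of 0.1, so a larger rise in Jak2V617F rests on the log2(FPKM + 1) scale. With libraries scaled to the same total, which moved the median interaction of all genes to 0.12, the split was 7 larger and 0 smaller, against 9.96% and 3.33% of all genes tested, and leaving out single libraries gave 0 to 5 in each direction. For Herc6, Ifih1, Ifit2, Irf1 and Zbp1 the interaction was not called (adjusted p = 0.057 to 0.631), so a difference between the backgrounds was not shown for them.

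**Figure D3:**
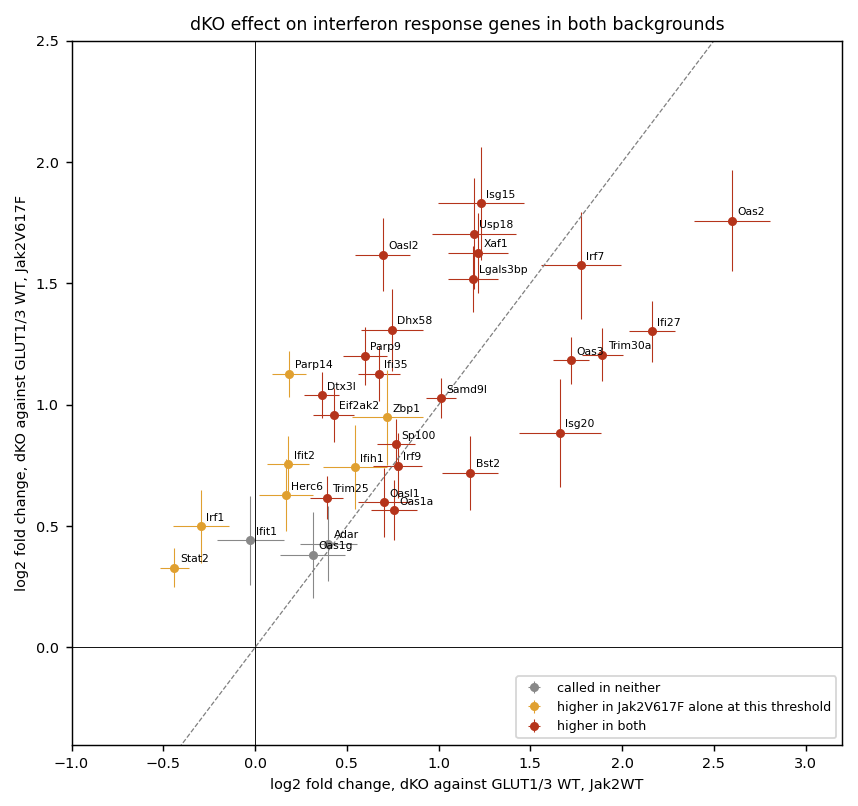
Log2 fold change of dKO against GLUT1/3 WT for the 33 tested members in Jak2WT (horizontal) and Jak2V617F (vertical), with SE bars; colours give the calls and the dashed line marks equal effects. The 23 members called in both lie in the upper right, Oas2, Ifi27 and Trim30a below the line, Parp14, Oasl2 and Dtx3l above it, and Stat2 is the one called lower in Jak2WT.

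Without the knockout, Jak2V617F and Jak2WT clones differed in 10 members, 7 higher and 3 lower in Jak2V617F, against 15.3% and 14.9% of all genes tested. Over both directions the members were thus called about as often as all genes. The median log2 fold change of the 33 members was 0.18, and without the 9 genes that passed through dKO or Jak2V617F libraries alone 6 of 24 were higher and 3 lower. With libraries scaled to the same total, which moved the median of all genes to -0.12, the split was 6 higher and 7 lower, against 10.3% and 24.8% of all genes tested. Of the 7 higher genes 4 were of the OAS cluster: Oas2 stood at 0.749 and 0.894 FPKM in Jak2WT and at 3.25 and 4.07 in Jak2V617F (log2 fold change 1.35 ± 0.21, adjusted p = 0.00384), Oas3 at 1.31 and 1.12 and 3.01 and 3.07 (0.87 ± 0.10, adjusted p = 0.00144), and Oas1a at 11.1 and 12.3 and 15.4 and 17.2 (0.45 ± 0.12, adjusted p = 0.0313). Oas1g, with 0 reads in Jak2WT without the knockout and 1.40 and 1.94 FPKM in Jak2V617F, was at least 74.0-fold higher against the floor of 3 reads (adjusted p = 0.002 on the log2 scale). It passed the filter only through Jak2V617F libraries, the side where it is high, which leaves Oas2, Oas3 and Oas1a of the cluster. The others were Ifi27 (1.27 ± 0.13, adjusted p = 0.000923), Trim30a (1.11 ± 0.11, adjusted p = 0.000923) and Samd9l (0.43 ± 0.08, adjusted p = 0.00924). The 3 lower genes were those of the PARP and DTX3L group. Parp14 was at 3.90 and 3.56 FPKM in Jak2WT and 2.07 and 2.21 in Jak2V617F (-0.59 ± 0.09, adjusted p = 0.00446), Dtx3l was at 8.05 and 7.98 and 5.47 and 5.08 (-0.52 ± 0.10, adjusted p = 0.00699) and Parp9 at 4.81 and 4.12 and 2.73 and 3.34 (-0.44 ± 0.12, adjusted p = 0.0297). These groups are also the controls of the dKO comparisons, so a low control level and a large dKO effect are not separate measurements.

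Between the dKO clones, 10 members were higher in Jak2V617F and 0 were lower, against 7.12% and 9.96% of all genes tested, and the median was 0.36. Of the 10, Oasl2, Ifih1, Oas1g and Herc6 passed the filter through Jak2V617F libraries alone, the side where they are high. Without the 9 genes set apart above 6 of 24 were higher and 0 lower. Over all 33 tested members, voom on recovered reads called 15 higher and 0 lower, against 11.4% and 11.3% of all genes tested. At an unadjusted p under 0.05 by limma, 19 were higher and 1 was lower, and the share of all genes was not counted. These counts include the genes set apart. Oas1g (0.135 and 0.364 against 2.32 and 2.59 FPKM) and Oasl2 (0.895 and 0.684 against 3.15 and 3.27 FPKM) had the largest log2 fold changes, 1.47 ± 0.18 and 1.24 ± 0.15 (adjusted p = 0.00272 and 0.00284). Ifit2, Ifih1, Herc6, Lgals3bp, Stat2, Samd9l, Trim30a and Parp14 followed, from 0.82 for Ifit2 to 0.35 for Parp14 (adjusted p = 0.00476 to 0.043). When each library was left out in turn, the median ran from 0.23 to 0.50, and 27 to 31 of the 33 had a positive log2 fold change. When the fit held the dKO clones alone, 4 were called higher, against 3.69% of all genes tested.

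**Figure D4:**
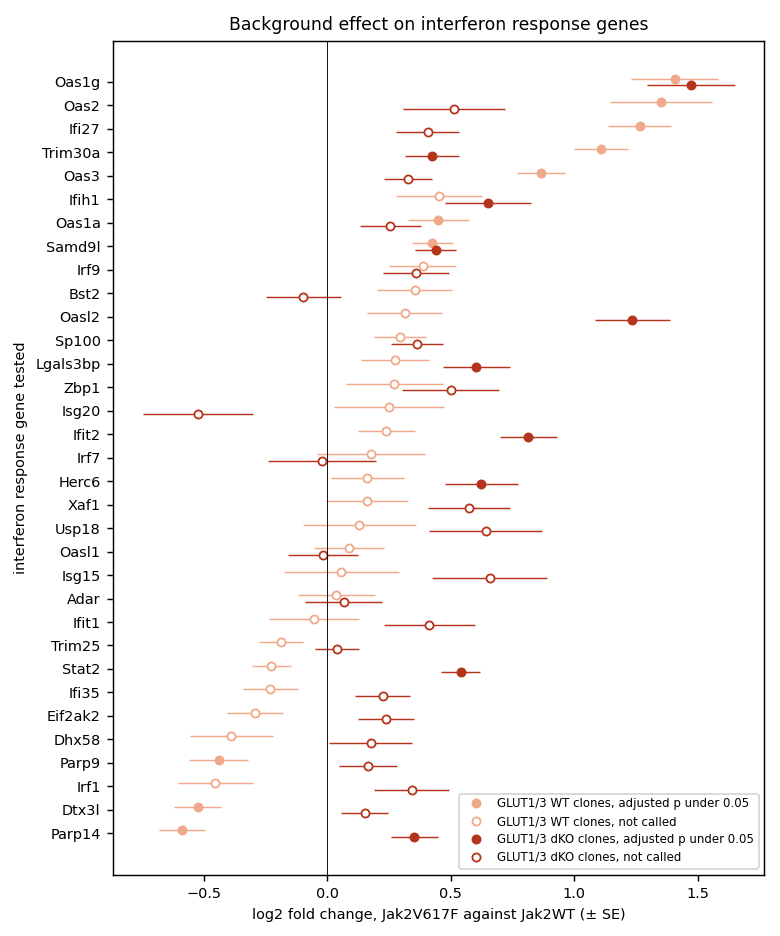
Log2 fold change (± SE) of Jak2V617F against Jak2WT for the 33 tested members among GLUT1/3 WT clones (light) and among dKO clones (dark); filled points passed an adjusted p of 0.05. Oas1g, Trim30a, Samd9l and Parp14 are filled in both, and Parp14 lies left of 0 among the GLUT1/3 WT clones and right of it among the dKO clones.

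The interferon genes themselves were at or near 0. Of 21 ligand genes listed (interferon-α, -β and related types), 16 had 0 reads in all 8 libraries, 5 (Ifnb1, Ifna4, Ifna13, Ifnab and Ifne) had any, and the most reads on 1 gene in 1 library were 7, on Ifna13 in Jak2V617F dKO clone 1. Ifnb1, the gene for interferon-β, had 2 reads in Jak2V617F dKO clone 3 and 0 in the other libraries. Reads summed over the 21 genes were 0, 0, 2 and 1 in the Jak2WT libraries (GLUT1/3 WT clones 1 and 3, then dKO clones 1 and 3) and 0, 5, 12 and 2 in those of Jak2V617F, so a difference was not detectable at this depth.

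Of 9 receptor chains and kinases listed, 8 were tested, and 0 were higher in either dKO comparison, by limma at the adjusted threshold or at an unadjusted p under 0.05 (13.7% and 7.62% of all genes tested were called higher), while 4 were lower in Jak2V617F dKO (16.2% of all genes tested). Ifnar1 was at 6.78 and 6.46 FPKM in the Jak2V617F GLUT1/3 WT clones and 6.05 and 6.36 in the dKO clones and was not called (log2 fold change -0.08 ± 0.08, adjusted p = 0.482). Ifnar2, the other chain of the type I receptor, was at 12.5 and 12.5 FPKM in the Jak2V617F GLUT1/3 WT clones and 7.88 and 7.96 in the dKO clones and fell (-0.59 ± 0.10, adjusted p = 0.00453). In Jak2WT it was at 7.87 and 6.74 and 9.17 and 8.06 FPKM and was not called (0.21 ± 0.10, adjusted p = 0.178), and the interaction was -0.81 ± 0.14 (adjusted p = 0.0178). Ifngr2 (-0.62 ± 0.15), Il10rb (-0.57 ± 0.11) and Jak1 (-0.29 ± 0.08) also fell in Jak2V617F dKO, with adjusted p = 0.00814 to 0.0316, while Ifngr1 (-0.52 ± 0.17, adjusted p = 0.0585) and Tyk2 (-0.04 ± 0.07, adjusted p = 0.73) were not called. Ifnlr1, a chain of the interferon-λ receptor, was too low to test. Jak2, which the cells also carry as a transgene, was at 139 to 165 FPKM in the Jak2V617F libraries and 218 to 258 in the Jak2WT ones and was called in neither dKO comparison.

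Among sensors of nucleic acids and their adaptors, 12 of the 17 in the table were tested, with 3 higher and 2 lower in Jak2V617F dKO (13.7% and 16.2% of all genes tested) and 1 higher and 1 lower in Jak2WT dKO (7.62% and 6.06%). The counts lower in both backgrounds and higher in Jak2WT dKO are near these shares. Ddx58, which encodes RIG-I, was higher in both (0.62 ± 0.15, adjusted p = 0.0221, and 0.90 ± 0.15, adjusted p = 0.0136). Sting1, the adaptor of the DNA sensor cGAS, was lower in both, from 5.01 and 4.61 to 1.71 and 1.69 FPKM in Jak2V617F (-1.10 ± 0.10, adjusted p = 0.000669) and from 8.24 and 7.25 to 4.05 and 3.48 FPKM in Jak2WT (-0.88 ± 0.10, adjusted p = 0.00567). Cgas itself was higher in Jak2V617F dKO (1.01 ± 0.12, adjusted p = 0.00172), as was the Toll-like receptor adaptor Myd88 (0.61 ± 0.10, adjusted p = 0.00427), and the DNA sensor gene Aim2 was lower (-0.51 ± 0.12, adjusted p = 0.0161). Of 6 tested nucleases that limit the cell's own nucleic acids, 4 were higher in Jak2V617F dKO (13.7% of all genes tested), led by Rnaseh2a (0.55 ± 0.09) and Rnaseh2b (0.52 ± 0.08), and 1 was higher in Jak2WT dKO (7.62% of all genes tested), Rnaseh2b (0.35 ± 0.08). Of 3 other interferon regulatory factors tested, 2 were higher in Jak2V617F dKO, against 13.7% of all genes. These were Irf3 and Irf5 (0.37 ± 0.11 and 0.28 ± 0.08, adjusted p = 0.0458 and 0.0395). In Jak2WT dKO 0 of 3 were called by limma (7.62% of all genes were higher), 1 of them at an unadjusted p under 0.05.

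Of 11 negative regulators of the pathway, 2 were higher and 3 lower in Jak2V617F dKO, not far from the 13.7% and 16.2% of all genes tested. Socs1, a feedback inhibitor of JAK kinases, was at 0.145 and 0.311 FPKM in the Jak2V617F GLUT1/3 WT clones and 1.45 and 1.30 in the dKO clones (0.95 ± 0.21, adjusted p = 0.0143), and its relative Socs3 was at 2.78 and 1.90 and 6.57 and 4.10 FPKM (0.91 ± 0.23, adjusted p = 0.0231). Irf2bp2 (-0.82 ± 0.08), Ptpn2 (-0.31 ± 0.10) and Pias4 (-0.24 ± 0.08) were lower in Jak2V617F dKO (adjusted p = 0.00092 to 0.0495), and of these 11 genes Pias4 alone was called in Jak2WT dKO, against 6.06% of all genes called lower (-0.48 ± 0.08, adjusted p = 0.0106).

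**Figure D5:**
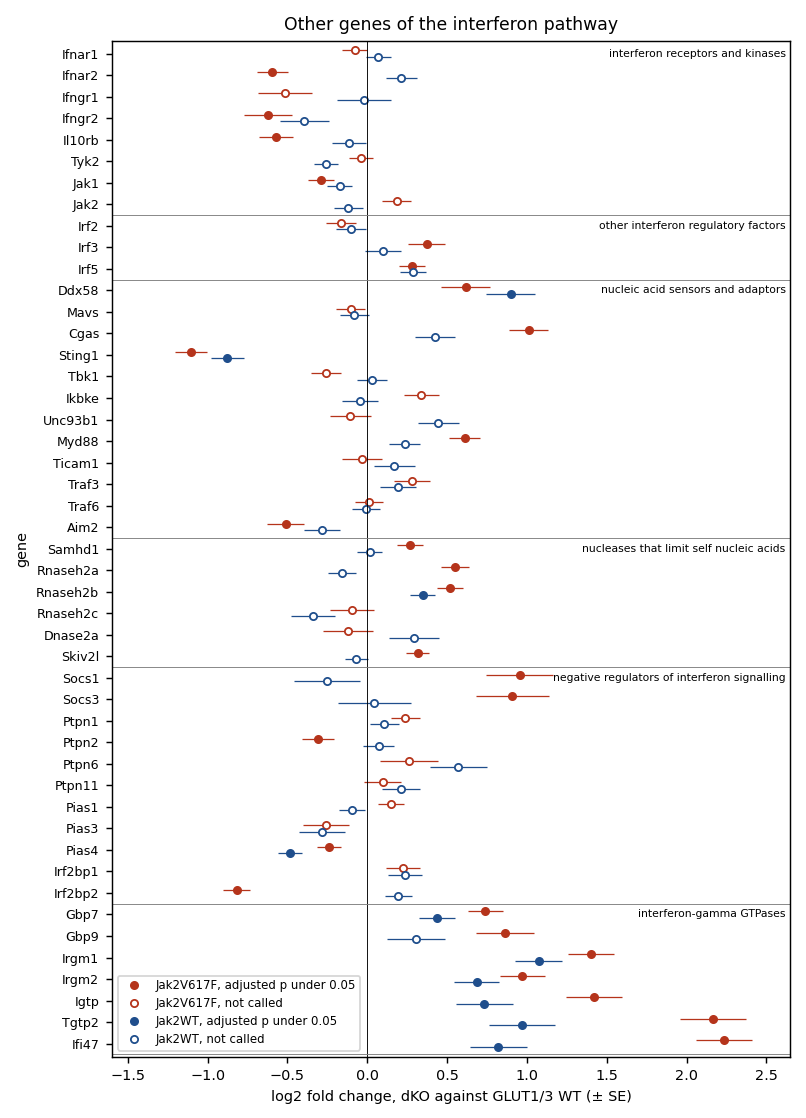
Log2 fold change (± SE) of dKO against GLUT1/3 WT in Jak2V617F (red) and Jak2WT (blue) for other tested genes of the pathway, grouped by list; filled points passed an adjusted p of 0.05. Receptor chains and kinases lie at or left of 0 in Jak2V617F apart from Jak2, Sting1 lies far left in both backgrounds, and all 7 GTPases lie right of 0 in both.

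A further list held GTPases that answer interferon-γ more than type I interferon and act against intracellular pathogens. Of 18 listed, 7 were tested, with 7 higher in Jak2V617F dKO and 6 in Jak2WT dKO (13.7% and 7.62% of all genes tested). Gbp9 and Tgtp2 passed the filter through dKO libraries alone, and without them 5 of 5 were higher in each background. Ifi47 was at 4.57 and 3.92 FPKM in the Jak2V617F GLUT1/3 WT clones and 21.4 and 26.1 in the dKO clones (2.23 ± 0.18, adjusted p = 0.000459), and at 3.75 and 5.76 and 8.49 and 9.54 FPKM in Jak2WT (0.82 ± 0.18, adjusted p = 0.0266). Tgtp2 (2.17 ± 0.21 and 0.97 ± 0.21), a near copy of Tgtp1 and therefore uncertain, Igtp (1.42 ± 0.18 and 0.73 ± 0.18) and Irgm1 (1.40 ± 0.15 and 1.07 ± 0.15) followed in the same order of backgrounds. Of 63 further interferon-stimulated genes outside the 42, 39 were tested, with 19 higher and 3 lower in Jak2V617F dKO (13.7% and 16.2% of all genes tested) and 16 higher and 1 lower in Jak2WT dKO (7.62% and 6.06%). Mx1 and Trim34a passed through dKO libraries alone, and without them 17 of 37 were higher in Jak2V617F dKO and 16 in Jak2WT dKO. The largest changes in Jak2V617F were Ifi27l2a (1.55 ± 0.23), Trim30d (1.54 ± 0.14) and Slfn9 (1.53 ± 0.15), and in Jak2WT Ifitm6 (1.54 ± 0.24), Phf11b (1.37 ± 0.29) and Ifi27l2a (1.26 ± 0.23). Ifitm1, a membrane protein gene that restricts virus entry, fell in Jak2V617F dKO (-0.87 ± 0.23, adjusted p = 0.0267), and Epsti1 was lower in Jak2V617F dKO (-0.62 ± 0.08, adjusted p = 0.0018) and higher in Jak2WT dKO (0.58 ± 0.08, adjusted p = 0.00755).

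The 9 members too low to test were Ifit3, Ifit3b, Rsad2, Ifi44, Rtp4, Cmpk2, Ddx60, Ifi203 and Ifi204. Rsad2, which encodes viperin, and Cmpk2, which encodes a mitochondrial nucleotide kinase, start 12752 bases apart on opposite strands. Cmpk2 had 0 reads in all 8 libraries, and Rsad2 had 0 to 8. Rtp4, a receptor transporter gene, had 69 reads (1.28 FPKM) in Jak2V617F dKO clone 3 and 0 to 8 reads elsewhere, so its signal came from 1 clone. Ifi203, a DNA-binding gene of the same family as the near copy Ifi204, had 0 reads in both Jak2WT GLUT1/3 WT clones, 19 and 16 in Jak2WT dKO, 6 and 12 in Jak2V617F GLUT1/3 WT and 66 and 119 in Jak2V617F dKO. In a fit by voom on recovered reads that kept low genes, chosen after the data were seen, it was higher in Jak2V617F dKO than in Jak2V617F GLUT1/3 WT (log2 fold change 3.06 ± 0.73, adjusted p = 0.0104) and than in Jak2WT dKO (2.71 ± 0.58, adjusted p = 0.00786), and of the other members with enough reads for this fit (Ifit3, Rsad2, Rtp4 and Ifi204) 0 were called. Ifi44 had 4 reads in 1 library and 0 in the others, and Ddx60 had 4 reads in all.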

How the data were processed

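RNA was sequenced from 8 clones of 32D cells, 2 in each of 4 groups taken from the sample titles. The deposited FPKM values were made by the authors' sequencing provider from reads cleaned with fastp 1.0.1, aligned to mm39 (GRCm39) with HISAT2 2.2.1 and counted per gene with featureCounts 2.0.6, per the submitters' processing notes. The annotation release, the strand setting and the total used in FPKM are not given in the sources used here, so reads of overlapping or antisense genes cannot be told apart. FPKM times gene length was a whole multiple of 1 step in each library (within 0.01 of the step, 100% of values), so reads were recovered, and counts of 0 to a few reads are limited by counting error.

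Genes reaching 1 FPKM in 2 or more of the 8 libraries entered limma 3.58.1 (R 4.3.3) as log2(FPKM + 1), with 1 mean per group in a single fit of all libraries, a trended empirical Bayes step (4 residual and 3.34 prior degrees of freedom) and Benjamini-Hochberg adjustment over 11818 genes. The test was checked on simulated data. Each background was tested for the knockout, each GLUT state for the background, and both for their interaction. The members and the other gene lists were chosen with earlier results of these data known. Some items are not reported here and were left out of the other lists and the description of the cells. Every member is named, and of the other lists the genes past the threshold whose clones did not overlap, at most 5 per list and direction, with receptors, kinases and ligands at any value. Promoters were read from the GRCm39 genome with GENCODE transcript starts, which lay within 100 bases of the 5′ end of the gene in the table for 36 of 42 members. A floor of 3 reads over a group replaced groups at 0 reads. Alternatives were other pseudocounts, filters, scalings, voom on recovered reads, fits of the groups compared alone, a clone block and leaving out each library.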

Additional observations from a re-analysis of the deposited data

Results flagged for a closer look

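For 6 members the effect of the double knockout differed between the backgrounds by the interaction test of limma. The dKO effect in Jak2V617F minus that in Jak2WT, on the log2 scale, was 0.94 for Parp14 (adjusted p = 0.013), 0.77 for Stat2 (adjusted p = 0.0139) and 0.68 for Dtx3l (adjusted p = 0.027), so the rise was larger in Jak2V617F, and Stat2 fell in Jak2WT. For Oasl2 it was 0.92 (adjusted p = 0.0383), but the ratios of mean FPKM were 8.64-fold in Jak2V617F and 7.65-fold in Jak2WT, and voom on recovered reads gave an adjusted p of 0.586. The value was -0.86 for Ifi27 (adjusted p = 0.0303) and -0.68 for Trim30a (adjusted p = 0.0377), both of which rose more in Jak2WT and stood higher in Jak2V617F before the knockout. For each of these 6 genes at least 1 alternative setting took the adjusted p past 0.05, and in none did the direction turn.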

How the results depend on the processing

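Of the members called, 22 of 30 (Jak2V617F dKO against GLUT1/3 WT), 5 of 24 (Jak2WT dKO against GLUT1/3 WT), 7 of 10 (Jak2V617F against Jak2WT without the knockout), 4 of 10 (between the dKO clones) and 0 of 6 (interaction) stayed past the threshold under the alternatives named in the methods in which they could be tested (Zbp1 and Ifih1 fell under the filter on the mean), and 0 changed sign. Ifit1, not called in Jak2WT, changed sign when libraries were left out, with values from -0.15 to 0.10, positive without GLUT1/3 WT clone 1 (0.10) and without dKO clone 3 (0.02). The causes of these shifts were not tested.

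Shares of all genes tested in the same fit are in brackets. Without the filter, 14 members were higher in Jak2WT dKO (1.56%) and 6 between the dKO clones (2.45%). The interaction was then larger for 2 and smaller for 0 (0.64% and 0.702%). With the fit restricted to the groups compared, 4 were higher between the dKO clones (3.69%). Scaling to the same total gave 7 lower without the knockout (24.8%), and 7 larger and 0 smaller interactions (9.96% and 3.33%). Voom gave 7 lower without the knockout (22.5%), and 7 larger and 4 smaller interactions (11.3% and 4.86%). The 7 lower are near the share in both of these fits. Without its filter (added after the data were seen) voom gave 7 lower (13.8%), 16 higher between the dKO clones (8.3%) and 7 larger interactions (6.28%). A pseudocount of 0.1 gave 4 smaller interactions (5.53%).

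Leaving out each library in turn gave 5 to 24 members higher and 0 to 1 lower in Jak2WT dKO, 2 to 5 lower without the knockout, 4 to 13 higher and 0 to 1 lower between the dKO clones, and 0 to 5 in each direction in the interaction. Where a group was left with 1 clone, that clone was assumed to vary like the other groups. The median log2 fold change of the members moved between 0.93 and 1.12 in Jak2V617F dKO, 0.23 and 0.50 between the dKO clones and 0.12 and 0.39 in the interaction.

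The median was 1.16 (pseudocount 0.1), 0.76 (no filter), 1.26 (voom) and 1.29 (voom, no filter) in Jak2V617F dKO, and 1.13, 0.60, 1.11 and 1.08 in the same order in Jak2WT dKO. It was 0.32 without the knockout (pseudocount 0.1), 0.46 and 0.50 between the dKO clones (voom, voom without its filter), and 0.33 (mean FPKM of at least 1) and 0.41 (same total) in the interaction.

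The clone number was not a pairing: correlations of deviations between same-numbered clones ran from -0.25 to 0.15. With it as a replicate block, 30 members were higher in Jak2V617F dKO (12.6% of all genes tested). In Jak2WT dKO 21 were higher and 1 lower (6.28% and 4.92%). The block gave 8 higher and 4 lower without the knockout (14.5% and 13.9%) and 8 higher between the dKO clones (6.32%). The interaction was larger for 3 and smaller for 2 (3.77% and 4.32%).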
